A study of Mus musculus with 4 samples.

Results

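Scavenger receptors and the endocytic receptor Lrp1 were followed in bulk RNA-seq of microglia from a mouse model of Alzheimer's disease. The genes were taken by symbol from the count tables: Msr1, Cd36, Scarb1, Cd68, Marco, Lrp1, Cd5l, Colec12 and Scara3, 9 of the 49993 genes listed. Microglia, the resident macrophages of the brain, were isolated as CD11b+ cells by magnetic sorting of brain tissue from mice aged 10 months. Every mouse carried the APP/PS1 transgenes, which lead to amyloid deposits. In the AD group (2 libraries) the asrij gene was intact (APP/PS1+ asrij+/+), and in the AD/KO group (2 libraries) it had been deleted constitutively (APP/PS1+ asrij-/-), so that the loss was not limited to microglia. The labels name neither the promoter of the transgenes nor the number of mice behind a library, and no group without APP/PS1 was included. Nothing says that the 2 libraries of a group came from separate animals, so p-values measure only the spread between these libraries.

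Scavenger receptors are surface proteins that bind modified lipoproteins, polyanions and aggregated proteins, and carry them into endosomes and lysosomes. Msr1 and Cd36 on microglia are known to bind fibrillar amyloid-beta, and Lrp1 takes up amyloid-beta and the apolipoproteins that carry it. The family is grouped by structure rather than by sequence descent: class A members (Msr1, Marco, Scara3, Colec12) have collagen-like or coiled stems, class B members (Cd36, Scarb1) span the membrane at both ends, and Cd68 is a heavily glycosylated protein of endosomes and lysosomes. Cd5l is not a receptor but a secreted protein with scavenger receptor cysteine-rich domains, made by tissue macrophages.

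The libraries held from 13102622 to 19810076 counts. Levels are given as CPM, the count scaled to library size after TMM correction for differences in library composition. Ociad1, the mouse asrij gene, was at 50.2 and 63.4 CPM in the AD libraries and at 38.9 and 32.1 CPM in the AD/KO libraries. Reads of Ociad1 thus remained in AD/KO. Counts per gene do not show which exons the allele lacks, so this level does not tell whether the deleted part was present. The group names are used below only as the submitters' labels, with each direction a difference between libraries so labelled. A list of 12 microglial markers summed to 13240 to 19403 CPM in AD and to 5723 to 19793 CPM in AD/KO, with AD/KO replicate 2 lowest. The 10 astrocyte markers summed to 2034 to 4850 CPM in AD and 5122 to 12988 CPM in AD/KO, and the 10 neuron markers to 369 to 1243 CPM and 925 to 2912 CPM. AD/KO replicate 2 was the highest library for both. The 10 neutrophil markers reached 4880 CPM in AD replicate 2, against 350 to 561 CPM in the other libraries. No gene of these 4 lists was at 0 in any library. In bulk samples, fewer cells of a type and less RNA per cell cannot be told apart.

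Promoter sequence is shown for 3 of the macrophage genes described below: Cd36 and Cd5l, both lower in AD/KO, and Cd68, the lysosomal stain of phagocytic microglia. Entries were present for 5 of the 9 genes in the RefSeq promoter table (GRCm38.p6), and the 250 bases before the start given there are printed 5′ to 3′ on the gene's strand. For Cd5l and Cd68 that start is the outer end of the annotated gene, whereas for Cd36 it lies inside the gene's span, so that the Cd36 window belongs to an internal transcript start. Capitals mark matches, on either strand, to short motifs: GAGGAA (core of the site for PU.1, a macrophage lineage factor), TGANTCA (AP-1), GGGCGG (GC box) and CACGTG (E-box).
Cd36, chr5:17835897-17836146, minus strand: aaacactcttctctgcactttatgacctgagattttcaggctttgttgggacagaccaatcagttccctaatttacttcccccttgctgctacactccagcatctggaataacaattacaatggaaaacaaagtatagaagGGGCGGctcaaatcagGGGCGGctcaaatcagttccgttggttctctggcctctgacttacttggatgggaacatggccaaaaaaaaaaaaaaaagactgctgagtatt
Cd5l, chr3:87357631-87357880, plus strand: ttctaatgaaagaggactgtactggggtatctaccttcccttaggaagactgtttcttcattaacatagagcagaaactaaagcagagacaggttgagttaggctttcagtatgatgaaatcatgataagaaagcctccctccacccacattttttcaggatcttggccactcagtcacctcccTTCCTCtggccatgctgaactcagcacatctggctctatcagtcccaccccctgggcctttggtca
Cd68, chr11:69666171-69666420, minus strand: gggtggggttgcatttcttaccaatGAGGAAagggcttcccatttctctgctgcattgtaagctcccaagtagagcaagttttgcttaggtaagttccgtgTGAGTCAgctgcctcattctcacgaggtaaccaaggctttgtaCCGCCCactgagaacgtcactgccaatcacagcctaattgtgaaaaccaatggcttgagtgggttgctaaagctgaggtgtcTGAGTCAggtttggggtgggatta

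The Cd68 window held 2 AP-1 matches, 1 PU.1 core and 1 GC box. The Cd36 window held 2 GC boxes and the Cd5l window 1 PU.1 core. Of 32536 promoter windows of the same length, 23.4% held the PU.1 core, 6.73% the AP-1 motif, 33.0% the GC box and 6.04% the E-box. No motif was common to the 3 windows. These matches describe letters in a window and say nothing of whether a factor binds there.

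The main comparison set the libraries labelled as lacking asrij against those labelled as carrying it. The genes fell into 3 patterns: Msr1, Cd36 and Cd5l were lower in both AD/KO libraries, Colec12 and Scara3 were higher in both, and Scarb1 and Lrp1 overlapped between the groups. Cd68 was lower in both AD/KO libraries, by a wide margin in only 1 of them. Of the 9 genes, 8 passed the filter on low counts and were tested, and 0 passed an adjusted p of 0.05 in the edgeR quasi-likelihood fit (Benjamini-Hochberg over 21439 genes), where 0.00% of all genes were called. Unadjusted p-values were under 0.05 for 4 genes, against 5.0% of all genes tested: 3 were lower (Msr1, Cd36, Cd5l), against 2.30% of all genes, and 1 was higher (Colec12), against 2.70%. The groups did not overlap in 6 of the 8, against 42.0% of all genes tested: 4 had both AD/KO libraries lower (21.7% of all genes) and 2 had both higher (20.3%). Cd5l passed the filter only through the AD libraries, so its place in these counts follows in part from the filter. The median log2 fold change of the 8 genes was −0.45, and −0.15 for the 7 without Cd5l, against −0.05 over all genes tested.

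**Figure D1:**
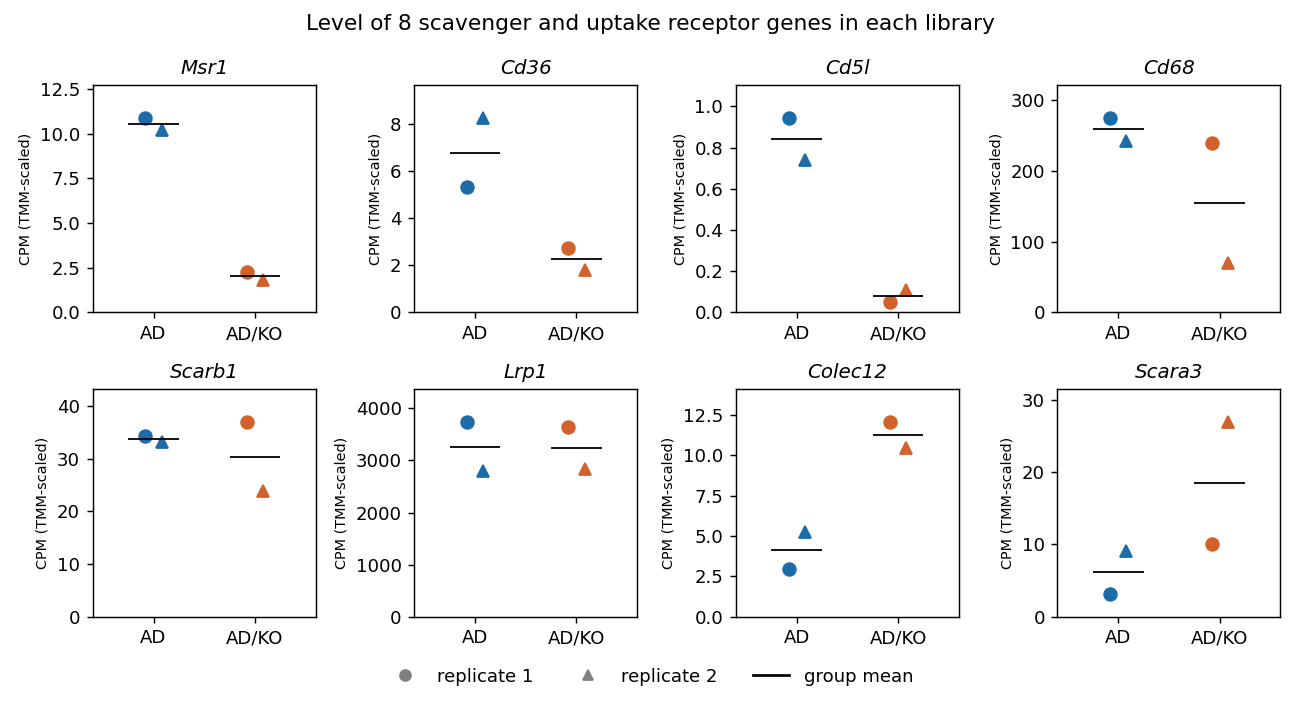
Level of each gene (vertical axes, TMM-scaled CPM, each from 0) in the AD and AD/KO libraries; circles are replicate 1, triangles replicate 2 and black lines the group means. Msr1 sat at 10.9 and 10.2 CPM in AD and at 2.24 and 1.79 CPM in AD/KO, whereas Lrp1 covered nearly the same range in both groups.

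Msr1 (gene ID 20288, chromosome 8, 39543232 to 39642750, minus strand, protein-coding) encodes scavenger receptor A, the class A receptor best known on macrophages. Its reads numbered 150 and 166 in the AD libraries, against 43 and 33 in AD/KO. In CPM, AD replicate 1 was at 10.9 and AD replicate 2 at 10.2, and AD/KO replicate 1 was at 2.24 and AD/KO replicate 2 at 1.79. Both AD/KO libraries therefore lay far below both AD libraries, and the libraries of a group differed little. Means were 10.5 ± 0.483 CPM for AD and 2.02 ± 0.319 CPM for AD/KO (SD, n = 2 each), 19.1% of the AD level. The log2 fold change was −2.38 (SE 0.44), with an unadjusted p of 0.00308 and an adjusted p of 0.680 by edgeR's quasi-likelihood test. By p it ranked 28 among the 21439 genes tested, and 0.765% of them had a lower log2 fold change. With DESeq2 as the test the adjusted p was 0.0421, and Msr1 was the only one of the 9 genes called by it, where DESeq2 called 0.462% of 19705 genes. Leaving out each library in turn kept the log2 fold change between −2.50 and −2.22.

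Marco (gene ID 17167, chromosome 1, 120474538 to 120505024, minus strand, protein-coding), the class A receptor of marginal zone and alveolar macrophages, had 0 reads in each of the 4 libraries. A count of 0 allows up to 3 reads, which is 0.156 to 0.218 CPM in these libraries and covers counting error only. Marco was not tested.

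Cd36 (gene ID 12491, chromosome 5, 17781690 to 17888959, minus strand, protein-coding) encodes a class B receptor for oxidised lipoproteins, long-chain fatty acids and fibrillar amyloid-beta. It was at 5.30 and 8.24 CPM in the AD libraries and at 2.71 and 1.79 CPM in the AD/KO libraries, from 33 to 134 reads. Both AD/KO libraries were below both AD libraries, but the AD libraries were themselves spread. The AD mean was 6.77 ± 2.08 CPM and the AD/KO mean 2.25 ± 0.651 CPM (SD, n = 2 each), with −1.59 (SE 0.54) as the log2 fold change. The unadjusted p was 0.0322 and the adjusted p 0.680 (edgeR quasi-likelihood, Benjamini-Hochberg). Without AD replicate 2, the highest library, the log2 fold change was −1.17.

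Cd5l (gene ID 11801, chromosome 3, 87357881 to 87371074, plus strand, protein-coding), the secreted apoptosis inhibitor of macrophages, was close to the limit of detection. Its reads numbered 13 and 12 in AD, against 1 and 2 in AD/KO, or 0.944 and 0.738 CPM against 0.0521 and 0.109 CPM. The AD/KO libraries were under the level of 3 reads. Pooled over libraries, the rate in AD was 10.4 times that in AD/KO, with an exact 95% interval of 3.18 to 54.0 that covers counting error only. The unadjusted p was 0.0122 and the adjusted p 0.680 in the edgeR quasi-likelihood fit. Since Cd5l met the minimum count only in AD, the group where it is high, these p-values are given as a description. DESeq2 gave no adjusted p for it.

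Like these 3 genes, the summed markers of other macrophages and of monocytes were lower in both AD/KO libraries. So were 21.7% of all genes tested. The 10 border-associated macrophage markers (macrophages of the meninges and vessels) summed to 119 to 160 CPM in AD and 67.6 to 79.3 CPM in AD/KO. The 8 monocyte markers summed to 110 and 468 CPM in AD replicates 1 and 2 and to 55.1 and 86.2 CPM in AD/KO. Within AD, Msr1 and Cd5l were slightly lower in replicate 2 than in replicate 1, and Cd36 was higher. No gene of either list was at 0 in any library, and the lists share no gene with the 9 receptors. Set against the mean log2 CPM of the border macrophage list in the same library, Msr1 was at 0.61 and 0.99 in AD and at −0.61 and −0.69 in AD/KO, a difference of −1.45 with no overlap. Cd36 on that measure was at −0.41 and 0.68 in AD and at −0.35 and −0.69 in AD/KO, so that its groups overlapped. The part of monocytes in the 3 differences was not tested.

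Cd68 (gene ID 12514, chromosome 11, 69664213 to 69666170, minus strand, protein-coding) is the lysosomal glycoprotein used as a stain for phagocytic microglia. It was at 274 and 242 CPM in the AD libraries, at 239 CPM in AD/KO replicate 1 and at 69.6 CPM in AD/KO replicate 2. AD/KO replicate 1 thus lay just below the AD libraries, and AD/KO replicate 2, the library lowest in microglial markers, carried the difference. Means were 258 ± 22.6 CPM for AD and 154 ± 120 CPM for AD/KO (SD, n = 2 each). The log2 fold change was −0.74 (SE 0.64), with an adjusted p of 0.703 by edgeR's quasi-likelihood test. It was −0.10 without AD/KO replicate 2 and −1.84 without AD/KO replicate 1.

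**Figure D2:**
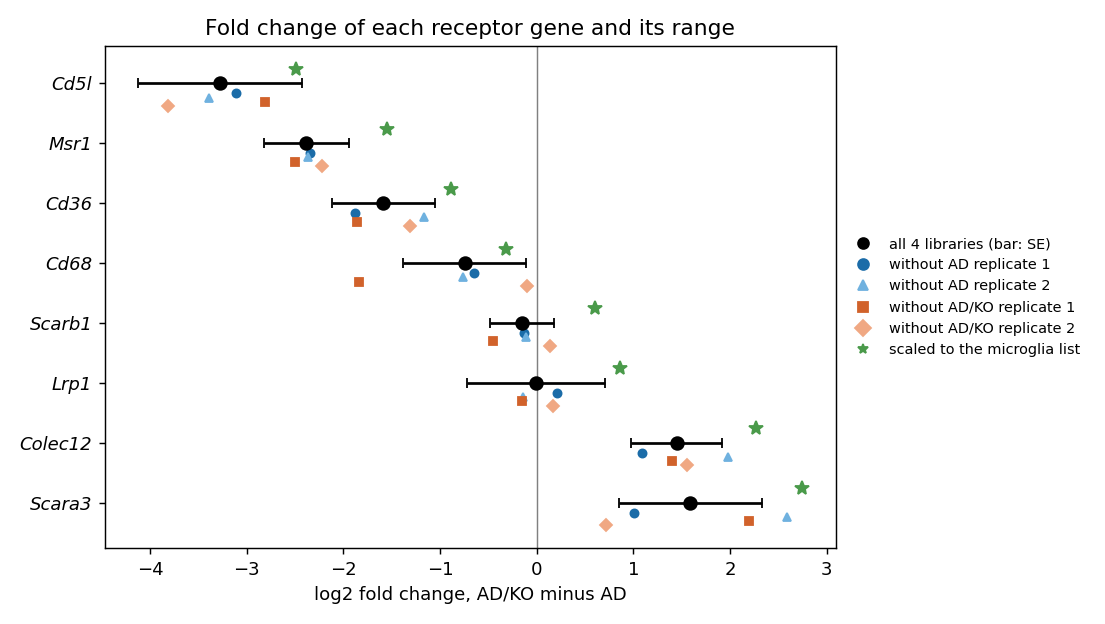
Log2 fold change (horizontal axis, AD/KO minus AD) of each gene: black points with bars are the fit on all 4 libraries with its SE, small symbols the fits without 1 library, and stars the fit scaled to 12 microglial markers. Msr1 stayed between −2.50 and −2.22 with a library left out, whereas Cd68 ran from −1.84 to −0.10.

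Scarb1 (gene ID 20778, chromosome 5, 125277087 to 125341094, minus strand, protein-coding), the class B receptor for high-density lipoprotein, was at 34.3 and 33.2 CPM in the AD libraries and at 36.9 and 23.8 CPM in the AD/KO libraries. The AD libraries lay between the AD/KO libraries. Its log2 fold change was −0.15 (SE 0.33; adjusted p of 0.862, edgeR quasi-likelihood), and it turned to 0.14 without AD/KO replicate 2. Of the class B receptors, Cd36 thus kept the groups apart and Scarb1 did not, and the difference between the 2 genes was not tested.

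Lrp1 (gene ID 16971, chromosome 10, 127538157 to 127621148, minus strand, protein-coding), a large endocytic receptor of the LDL receptor family that neurons and astrocytes also make, had the most reads of the 9 genes, 45427 to 70043 a library. It was at 3736 and 2792 CPM in AD and at 3652 and 2842 CPM in AD/KO. In each group replicate 1 was higher than replicate 2, and the groups covered nearly the same range. The log2 fold change was −0.01 (SE 0.72), with an adjusted p of 0.997 by edgeR's quasi-likelihood test. Its sign changed with 2 of the 4 libraries left out in turn, to 0.21 without AD replicate 1 and 0.17 without AD/KO replicate 2.

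Colec12 (gene ID 140792, chromosome 18, 9707648 to 9877995, plus strand, protein-coding) encodes a class A receptor with a C-type lectin domain, known from vascular and perivascular cells. It was at 2.98 and 5.22 CPM in the AD libraries and at 12.04 and 10.4 CPM in the AD/KO libraries. Both AD/KO libraries were above both AD libraries. The AD mean was 4.10 ± 1.59 CPM and the AD/KO mean 11.2 ± 1.15 CPM (SD, n = 2 each), with 1.45 (SE 0.47) as the log2 fold change. The unadjusted p was 0.0279 and the adjusted p 0.680 (edgeR quasi-likelihood, Benjamini-Hochberg). Part of the longest Colec12 transcript in GENCODE M21 matched 49 other genes at 95% identity or more, over at most 417 bases, so some of its reads may belong elsewhere. No other gene of the 9 had such a match.

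The 10 fibroblast and mural cell markers summed to 34.8 to 74.4 CPM in AD and 62.4 to 145 CPM in AD/KO, and 1 of them was at 0 in AD replicate 1. Relative to the mean log2 CPM of the 9 of them that passed the count filter, Colec12 was at 0.26 and −0.04 in AD. In AD/KO it was at 1.57 and 0.36. The groups still did not overlap, but the gap between AD replicate 1 and AD/KO replicate 2 was small. The 10 endothelial markers overlapped between the groups, at 49.3 to 63.4 CPM in AD and 48.8 to 78.8 CPM in AD/KO.

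Scara3 (gene ID 219151, chromosome 14, 65919394 to 65953978, minus strand, protein-coding), a class A family member induced by oxidative stress, was at 3.19 and 9.04 CPM in the AD libraries and at 10.0 and 27.0 CPM in the AD/KO libraries. AD replicate 2 and AD/KO replicate 1 nearly touched, and AD/KO replicate 2 stood far above the rest. Means were 6.11 ± 4.13 CPM for AD and 18.5 ± 11.99 CPM for AD/KO (SD, n = 2 each). The log2 fold change was 1.59 (SE 0.74), with an unadjusted p of 0.0854 and an adjusted p of 0.680 by edgeR's quasi-likelihood test. Without AD/KO replicate 2 it was 0.72, and without AD replicate 2 it was 2.59. Relative to the astrocyte marker list, Scara3 was at −4.50, −4.36, −4.34 and −4.19 in AD replicates 1 and 2 and AD/KO replicates 1 and 2. These values span 0.31 on the log2 scale. Relative to the neuron marker list they were −2.79, −2.96, −2.57 and −2.75, a span of 0.38, so the nearness of Scara3 was not particular to the astrocyte list. On both lists the AD/KO values lay above the AD values without overlap, by a small gap.

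**Figure D3:**
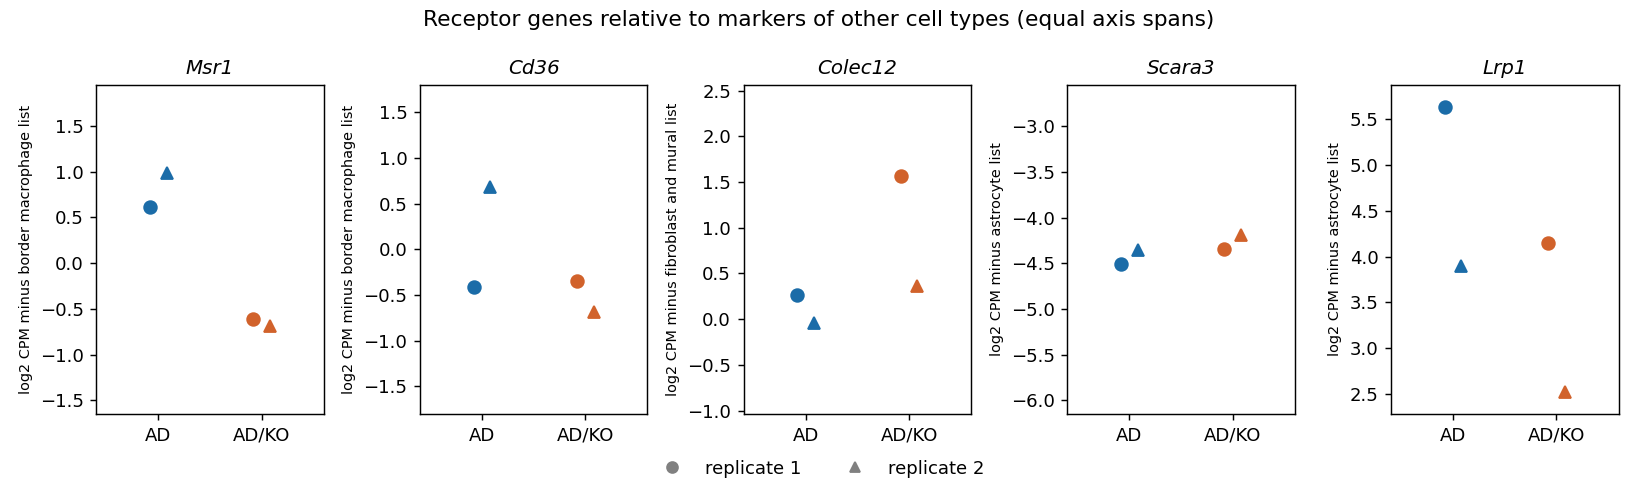
Log2 CPM of a receptor gene minus the mean log2 CPM of a marker list in the same library (vertical axes, equal spans of log2 units), with circles for replicate 1 and triangles for replicate 2. Msr1 against border macrophage markers kept the groups apart, at 0.61 and 0.99 against −0.61 and −0.69. Scara3 against astrocyte markers stayed between −4.50 and −4.19, with the groups close together but not overlapping.

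Since the libraries differed in the level of microglial markers, each gene was also set against the mean log2 CPM of the 12 microglial markers in its own library. Msr1 was at −6.79 and −6.40 in AD and at −8.97 and −7.48 in AD/KO, a difference of −1.63, with no overlap between the groups. Cd68 was at −2.15 and −1.85 in AD and at −2.31 and −2.29 in AD/KO. Its 2 AD/KO libraries, far apart in CPM, were nearly equal on this measure, and the difference was −0.30 without overlap. Its size depended on the markers chosen: against P2ry12, Tmem119 and Csf1r alone, taken after the data were seen, it was −0.53. Cd36 overlapped between the groups (−7.81 and −6.71 in AD, −8.71 and −7.48 in AD/KO).

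Lrp1 was at 1.62 and 1.68 in AD and at 1.62 in AD/KO replicate 1, and stood at 3.06 in AD/KO replicate 2. Scarb1 showed the same single high library, at −3.83 against −5.14 to −4.71 in the other libraries. Colec12 was higher in both AD/KO libraries (−6.61 and −5.02) than in both AD libraries (−8.62 and −7.35). Scara3 overlapped, at −8.52 and −6.58 in AD and −6.87 and −3.65 in AD/KO. Values for Cd5l on this scale depend on the prior count and are not given. When the edgeR fit itself was scaled to these markers, the log2 fold change of all genes shifted by 0.89 at the median. The log2 fold change of Msr1 was then −1.55 and that of Cd36 −0.88, and neither passed (adjusted p of 0.737 and 0.843, edgeR quasi-likelihood).

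**Figure D4:**
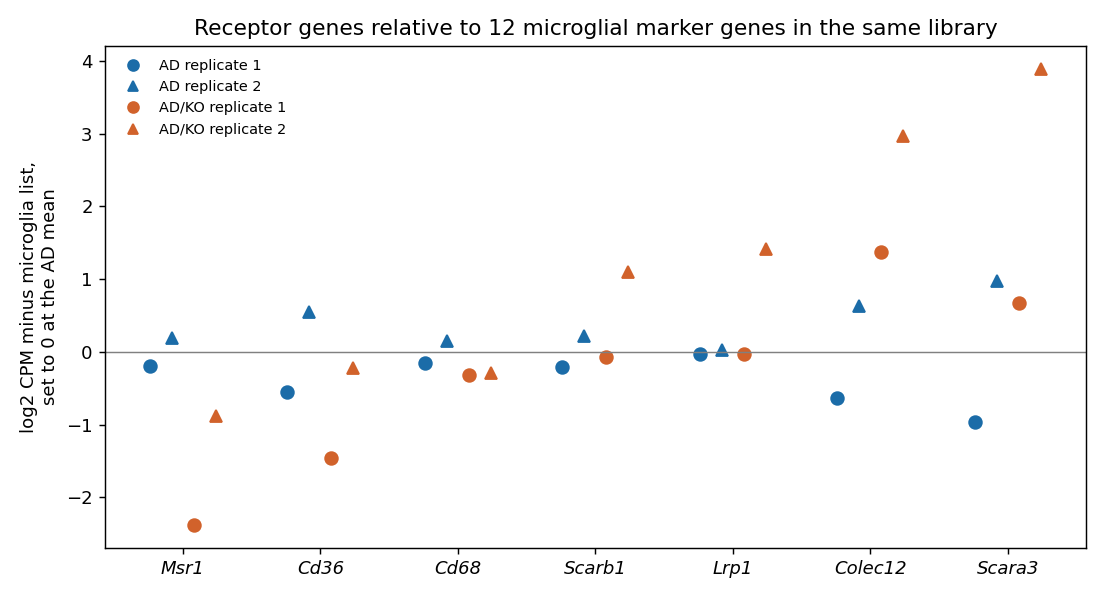
Log2 CPM of each gene minus the mean log2 CPM of 12 microglial markers in the same library (vertical axis, log2 units, shifted so that the AD mean of each gene is 0); blue symbols are AD, orange AD/KO, circles replicate 1 and triangles replicate 2. Both AD/KO symbols of Msr1 lie below both AD symbols, those of Cd36 overlap, and AD/KO replicate 2 stands high for Scarb1, Lrp1, Colec12 and Scara3.

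Levels were compared between genes per kilobase of exonic sequence (GENCODE M21), as TMM-scaled CPM per kb. In AD, Cd68 (193 to 218 CPM per kb) and Lrp1 (158 to 211 CPM per kb) were the most abundant and overlapped each other. Scarb1 followed at 3.90 to 4.03 CPM per kb. Below it Cd36 (1.48 to 2.29 CPM per kb), Scara3 (0.888 to 2.51 CPM per kb) and Msr1 (1.61 to 1.72 CPM per kb) overlapped, and so did Colec12 (0.341 to 0.599 CPM per kb) and Cd5l (0.362 to 0.463 CPM per kb). Within class A, Msr1 was thus above Colec12 in both AD libraries and in neither AD/KO library, where Scara3 was at 2.78 to 7.498 CPM per kb, Colec12 at 1.19 to 1.38 CPM per kb and Msr1 at 0.282 to 0.353 CPM per kb. In AD/KO, Lrp1 (160 to 206 CPM per kb) and Cd68 (55.4 to 190 CPM per kb) still overlapped, as did Scara3 and Scarb1 (2.80 to 4.34 CPM per kb), and Cd36 was at 0.499 to 0.755 CPM per kb. For each 100 reads of Msr1 there were 27.3 and 51.2 reads of Colec12 in the AD libraries and 537 and 582 in the AD/KO libraries, a ratio that library scaling cannot alter. Colec12 was already seen to be higher in AD/KO and Msr1 lower. The separation of their ratio follows from that choice of pair and adds no support. No test was made of this ratio.

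Among the 13769 genes tested with a mean of at least 5 CPM, the one nearest to each receptor in its pattern over the 4 libraries was found by the root mean square difference of centred log2 CPM. The nearest to Msr1 was Gas2l3, at 15.7, 14.0, 3.60 and 2.66 CPM (difference 0.072), and 13 genes lay within 0.3. The nearest to Cd36 was Slfn2 (0.096, with 68 genes within 0.3), to Cd5l Lrguk (0.20, with 6 genes) and to Colec12 Gm26448 (0.079, with 26 genes). Cd68 was nearest to Ly86, a myeloid partner of the Toll-like receptor family protein CD180, at 266, 230, 216 and 67.5 CPM (0.041, with 859 genes). The patterns of Scara3 (nearest Acsl6, 1268 genes within 0.3), Scarb1 (Nsrp1, 5039 genes) and Lrp1 (Scamp5, 5081 genes) were shared by many genes. Among the receptors themselves, Msr1 and Cd5l differed by 0.27, Scarb1 and Lrp1 by 0.19, and Msr1 and Scara3 by 2.12. With 4 libraries these likenesses are descriptions only, and those of Cd5l also depend on the prior count.

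Other genes of the same uptake routes were counted from 4 lists, in which 0 genes passed the threshold in the edgeR fit. DESeq2 called 1 of them, Lpl, where it called 0.462% of 19705 genes. Of 17 other scavenger receptors, 15 were tested, 11 lower and 4 higher in AD/KO, with a median log2 fold change of −0.27 (−0.05 over all genes tested) and 2 genes at an unadjusted p under 0.05, a threshold that 5.0% of all genes tested met. Olr1, the lectin-like receptor for oxidised LDL, was at 2.83 and 8.79 CPM in AD and 1.77 and 1.03 CPM in AD/KO (log2 fold change −2.05, SE 0.77, unadjusted p of 0.0452 by edgeR). Its reads numbered 143 in AD replicate 2, the library highest in neutrophil markers, against 19 to 39 in the other libraries. Ssc5d, a soluble cysteine-rich scavenger protein, was at 0.798 and 1.54 CPM in AD and 3.75 and 7.76 CPM in AD/KO (log2 fold change 2.29, SE 0.68, unadjusted p of 0.0210 by edgeR). Both were named because they had the smallest p of the list in their direction, so the lack of overlap between their groups adds no support. The genes named from the other lists below were picked by the same rule. In this list 6 genes were lower and 1 was higher without overlap, against 21.7% and 20.3% of all genes tested. Some of those lower are also border macrophage markers, so they are not an observation separate from that list.

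Of 20 genes of the LDL receptor family and its partners, 19 were tested, 9 lower and 10 higher, with a median log2 fold change of 0.12 and 1 gene at an unadjusted p under 0.05, a share near the 5.0% of all genes tested. Gulp1, an engulfment adaptor that binds the tail of Lrp1, was at 0.871 and 0.615 CPM in AD and 1.77 and 4.07 CPM in AD/KO (unadjusted p of 0.0412, edgeR). Dab2, a clathrin adaptor, was at 51.0 and 36.9 CPM in AD and 26.6 and 26.0 CPM in AD/KO (unadjusted p of 0.0597, edgeR). Of 12 ligands and carriers, 7 were lower and 5 higher, with a median of −0.13 and 2 genes at an unadjusted p under 0.05, again against 5.0% of all genes tested. Lpl, lipoprotein lipase, was at 83.8 and 80.8 CPM in AD and 12.5 and 7.81 CPM in AD/KO, and Mfge8, a bridging protein that binds phosphatidylserine, at 24.1 and 39.6 CPM and 54.1 and 116 CPM.

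Of 11 sterol and lipid sensors, 5 were lower and 6 higher, with a median of 0.13, and 0 had an unadjusted p under 0.05. Pparg, the nuclear receptor known to induce Cd36 in macrophages, had 16 to 81 reads a library. It was at 1.16 and 1.78 CPM in AD and 2.03 and 4.396 CPM in AD/KO, and a link to Cd36 was not tested. Its unadjusted p was 0.155 by edgeR. Mylip, which marks LDL receptors for degradation, was at 302 and 188 CPM in AD and 264 and 85.7 CPM in AD/KO, and its groups overlapped.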

How the data were processed

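For every library the authors deposited unnormalized counts, in whole reads, for each gene symbol. Per the submitters' processing notes, FastQC, HISAT2, SAMtools, featureCounts (Subread) and DESeq2 1.30.0 were used with the build mm10. The strand setting, the handling of reads with several matches and the annotation are not given in the sources used here. Per the labels' protocols, extraction used TRIzol, and stranded libraries followed removal of ribosomal RNA. Broken lines without a count (11 per library) were left out. None named a gene reported here.

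Genes were kept by filterByExpr (minimum count 10, minimum total 15) and tested with edgeR 4.0.16 in R 4.3.3: TMM scaling, quasi-likelihood F-test, no covariates, Benjamini-Hochberg adjustment over all genes tested, threshold 0.05. The SE is the log2 fold change divided by the square root of F. The fit shares its estimate of spread across genes, so an SE or p-value does not measure the spread of 1 gene alone. Log2 CPM uses a prior count of 2. Reads carry no molecular identifiers, so intervals and floors (3 reads) cover counting error only. Alternatives were DESeq2 1.42.0, its size factors, other filters, the replicate number as a block, scaling to microglial markers and leaving out each library. The reference lists for border macrophages, fibroblasts, astrocytes and neurons, and the markers P2ry12, Tmem119 and Csf1r alone, were set beside the receptors after the data were seen. Near-identical transcripts were searched with BLAST 2.17.0. The procedure was run on simulated data with planted changes larger than those of all the receptors but Cd5l. That run does not tell how well smaller changes are found.

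The 9 genes and all lists were chosen with earlier results of these data known. Named were the 9 genes, Ociad1, the nearest gene to each in pattern and, from each of 4 uptake lists, the gene with the smallest p in each direction. Gene positions are from RefSeq (GRCm38.p6), counted from 1. No sequencing batch or date was given. A comparison with another short list of microglial markers also moved the Cd68 difference by more than the replicate spread, and its values are not reported here.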

Additional observations from a re-analysis of the deposited data

How the results depend on the processing

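Each group had 2 libraries, AD/KO replicate 2 was low in microglial markers, and reads of Ociad1 remained in AD/KO. Depth limits what can be said of Cd5l and Marco. Alternatives gave 153 values, of which 123 changed neither sign nor call, or moved by less than the spread between replicates. The others were 18 that moved, 7 that changed sign and 5 that gained a call. The size of a gene's fold change did not enter this count, so Cd68 at −0.10 and at −1.84 counted as unchanged. Genes past the threshold numbered 0 in edgeR's fit on all libraries (1072 by unadjusted p), 91 with DESeq2 and 0 to 524 with a library left out (48 without AD replicate 1 and 524 without AD replicate 2). Of the 9 receptors, DESeq2 called 1 (Msr1), and 0 were called in each fit with a library left out, where the lone library of a group is assumed to vary like the other group. The adjusted p of Msr1 ran from 0.00334 (edgeR with the replicate block) to 1.0 (edgeR without AD/KO replicate 2).

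The groups share replicate numbers, which the labels do not tie to a litter, batch or day. Deviations of same-numbered libraries correlated at 0.68 across genes. With the replicate block, edgeR called 4333 genes (20.2%) and 4 of the receptors: Msr1, Cd36, Colec12 and Scara3.

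Scaling to the microglial markers gave 0.61 for Scarb1 and 0.86 for Lrp1, and list medians of 0.55 (other scavenger receptors), 1.14 (LDL receptor family), 0.84 (ligands and carriers) and 1.07 (sterol sensors), against a shift of all genes by 0.89. Lrp1 was at 0.026 with DESeq2 and 0.033 with its size factors. With a library left out, Lrp1 ran from −0.15 to 0.21 (0.17 without AD/KO replicate 2) and Scarb1 from −0.45 to 0.14. With a library left out, the list medians ran from −0.44 to 0.012 (other scavenger receptors, the latter without AD/KO replicate 2), 0.059 to 0.47 (LDL receptor family) and −0.20 to 0.066 (ligands and carriers), the last 2 highest without AD replicate 2. Against the other reference lists the differences were 0.86 for Colec12 (fibroblast and mural), 0.16 and 0.21 for Scara3 (astrocyte and neuron) and −1.43 for Lrp1 (astrocyte). Lrp1 on the astrocyte list was at 5.64 and 3.90 in AD and at 4.15 and 2.52 in AD/KO, so its groups overlapped. Against P2ry12, Tmem119 and Csf1r, a choice made after the data were seen, the difference of Cd68 was −0.53, and the other 7 genes moved by less than the replicate spread. The cause of these shifts was not tested.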

Other observations

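Ratios of reads within a library do not depend on library scaling. For each 100 reads of Cd68 there were 3.97 and 4.21 reads of Msr1 in the AD libraries and 0.938 and 2.57 in the AD/KO libraries. For Cd36 the values were 1.93 and 3.40 in AD and 1.13 and 2.57 in AD/KO, so that Msr1 separated the groups and Cd36 did not. Msr1 gave 205 and 124 reads for each 100 reads of Cd36 in AD and 82.7 in the first AD/KO library, while the other AD/KO library held 33 reads of each. These ratios were chosen after the values were seen and were not tested.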
